A study of Arabidopsis thaliana with 18 samples.

Results

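Aquaporins are membrane channels that let water, and in some members small solutes, cross a lipid bilayer. The 35 aquaporin genes of Arabidopsis thaliana described here were chosen by their gene identifiers, of 33560 genes listed for sorted cells and 33201 entries listed for root tips, and all 35 were found in both tables. They fall into 13 PIP genes (plasma membrane intrinsic proteins), 10 TIP genes (tonoplast intrinsic proteins, of the vacuolar membrane), 9 NIP genes (nodulin 26-like proteins) and 3 SIP genes (small basic proteins of the endoplasmic reticulum). The rule uses gene identifiers and no measured value, although earlier results of these data were known when the family was picked.

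RNA was sequenced from 5-day-old seedlings in 6 groups of 3 replicates. Root tips of about 2 mm came from Col-0 wild type (WT) and from tcx2-3, a knockout allele of TCX2, a CXC-domain transcription factor. In each of the remaining 4 groups, roots with a reporter transgene in a tcx2 background were turned into protoplasts and sorted by GFP. Their allele was either the knockdown tcx2-2 or tcx2-3, and which reporter went with which allele was not stated. CYCD6:GFP marks the cortex-endodermis initial, TMO5:3xGFP xylem initials, WOX5:GFP the quiescent center, and FEZ:FEZ-GFP those initials that give rise to epidermis and to the lateral root cap. All sorted cells were thus mutant, no sorted WT library was analysed here, and a difference between populations is a difference among tcx2 cells. If the allele differed between reporter lines, its part could not be told apart from that of the population.

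Levels are given as FPKM, fragments per kilobase of transcript scaled to mapped fragments. TCX2 itself stood at 1.29 FPKM in WT root tips, with an interval of 0.715 to 1.82, and at 0.303 FPKM in tcx2-3 root tips, where the interval ran from 0.0550 to 0.550. The 12 sorted libraries held 0 to 0.722 FPKM of it, with a median of 0.330. The 12 libraries summed to 551518 to 862385 FPKM, of which ribosomal RNA took 78.1% to 85.9%, and the nuclear genes without ribosomal RNA summed to 40428 to 89046. Their depth in reads is unknown. The endogenous genes behind the TMO5 and WOX5 reporters were each higher in the other population. TMO5 had 0, 0.206 and 0 FPKM under its own reporter but 3.75, 0.391 and 0.782 in WOX5:GFP, and WOX5 had 1.49, 0.997 and 0 FPKM in TMO5:3xGFP and was listed at 0 in every other sorted library. No library sorted by CYCD6:GFP had a value above 0 for CYCD6;1. FEZ was highest on average under its own reporter (2.90, 0.949 and 0.347 FPKM, against 0.702, 0.917 and 0.408 in TMO5:3xGFP and at most 0.0733 elsewhere). Most calls below concern TMO5:3xGFP and WOX5:GFP, and all populations are called by their label and not by a cell type. Markers of differentiated endodermis (CASP1 to CASP5 and MYB36) summed to at most 2.55 FPKM in any sorted library, and those of cortex to at most 2.53. For sorted cells, seed was sterilized and plated separately for each biological replicate.

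In plants the PIP and TIP channels carry most of the water that moves across the plasma membrane and the vacuolar membrane, and roots are the organ in which this family is best known. PIP1 proteins reach the plasma membrane poorly on their own and do so in mixed tetramers with PIP2 proteins. NIP channels pass glycerol, boric acid and the metalloids arsenite and antimonite rather than mainly water. Each side of the channel folds back into the pore through a short loop that bears the residues asparagine, proline and alanine (the NPA motif), which is the signature of the family.

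RefSeq lists letter names beside the numbered names for many of the genes, and the letter names are used below. PIP1;1 to PIP1;5 are PIP1A (AT3G61430), PIP1B (AT2G45960), PIP1C (AT1G01620), PIP1E (AT4G00430) and PIP1D (AT4G23400). PIP2;1 to PIP2;8 are PIP2A (AT3G53420), PIP2B (AT2G37170), PIP2C (AT2G37180), PIP2F (AT5G60660), PIP2D (AT3G54820), PIP2E (AT2G39010), PIP3A (AT4G35100) and PIP3B (AT2G16850). TIP1;1 to TIP1;3 are GAMMA-TIP1 (AT2G36830), GAMMA-TIP2 (AT3G26520) and GAMMA-TIP3 (AT4G01470), TIP2;1 to TIP2;3 are DELTA-TIP1 (AT3G16240), DELTA-TIP2 (AT4G17340) and DELTA-TIP3 (AT5G47450), and TIP3;1 and TIP3;2 are ALPHA-TIP (AT1G73190) and BETA-TIP (AT1G17810). NIP1;1 and NIP1;2 are NLM1 (AT4G19030) and NLM2 (AT4G18910), and SIP1;1 and SIP1;2 are SIP1A (AT3G04090) and SIP1B (AT5G18290). TIP4;1 (AT2G25810), TIP5;1 (AT3G47440), NIP2;1 (AT2G34390), NIP3;1 (AT1G31885), NIP4;1 (AT5G37810), NIP4;2 (AT5G37820), NIP5;1 (AT4G10380), NIP6;1 (AT1G80760), NIP7;1 (AT3G06100) and SIP2;1 (AT3G56950) keep their numbered names.

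The coding sequences of the 7 genes that passed a test among the sorted populations are shown at the first NPA loop, where all 7 hold the motif. Each run is 45 coding bases from the RefSeq models on TAIR10.1, written 5′ to 3′ on the coding strand, with the 3 codons of the motif in capitals. The runs of the 4 PIP genes join bases on both sides of an intron, so the position given for each gene is that of the 3 codons alone, all in coding exon 2. They lie at chr2:18911014-18911022 (plus strand) in PIP1B, chr1:226672-226680 (minus) in PIP1C, chr4:12221407-12221415 (plus) in PIP1D, chr4:16709061-16709069 (plus) in PIP3A, chr3:5505883-5505891 (plus) in DELTA-TIP1, chr2:11013000-11013008 (plus) in TIP4;1 and chr4:10422950-10422958 (minus) in NLM1.
PIP1B: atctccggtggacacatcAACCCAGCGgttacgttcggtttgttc
PIP1C: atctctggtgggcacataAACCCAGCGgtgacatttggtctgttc
PIP1D: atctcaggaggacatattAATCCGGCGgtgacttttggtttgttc
PIP3A: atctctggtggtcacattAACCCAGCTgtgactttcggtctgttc
DELTA-TIP1: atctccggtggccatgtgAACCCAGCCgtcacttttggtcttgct
TIP4;1: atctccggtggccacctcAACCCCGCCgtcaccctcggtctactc
NLM1: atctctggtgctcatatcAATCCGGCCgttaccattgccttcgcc

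In-frame codons for the motif were searched on the coding strand as AACCCNGCN or AATCCNGCN. All 13 PIP and all 10 TIP genes held 2 such boxes, 4 of 9 NIP genes held 2, NIP5;1 held 0, and each of the 3 SIP genes held 1. Of 27444 genes with a coding sequence, 4.45% held at least 1 box and 0.281% at least 2. The boxes are a description of these letters, and other codons for other residues at the same loop were not searched.

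A second set of sequences bears on which values can be told apart. PIP2B and PIP2C are neighbors on chromosome 2 with 2987 bases between their coding regions, and their coding sequences were 94.8% identical (45 differences over 858 bases). Of all 100-base windows of either coding sequence, the length of the reads, 18.8% occurred in both, and the longest identical stretch was 242 bases. How reads that match both were assigned is not given in the sources used here, so the values of the pair are uncertain. No other member shared windows with another member, and NIP2;1 shared 7.68% of its windows with AT2G29870. The window of 100 coding bases printed for each gene holds 14 differences, in capitals, at chr2:15614161-15614260 (minus strand) for PIP2B and chr2:15618310-15618409 (plus) for PIP2C on TAIR10.1.
PIP2B: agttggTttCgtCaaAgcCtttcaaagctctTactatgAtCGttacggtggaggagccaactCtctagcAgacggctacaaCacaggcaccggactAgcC
PIP2C: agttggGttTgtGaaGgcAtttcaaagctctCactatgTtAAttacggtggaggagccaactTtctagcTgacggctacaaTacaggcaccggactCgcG

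In the sorted tcx2 cells, aquaporin RNA was lowest in the TMO5:3xGFP population and highest in WOX5:GFP. In TMO5:3xGFP the 35 genes summed to 131, 62.6 and 169 FPKM per library, and in WOX5:GFP to 390, 527 and 508. CYCD6:GFP lay between them at 249.6, 309.6 and 346, and so did FEZ:FEZ-GFP at 254, 309.5 and 182. Every TMO5:3xGFP sum in FPKM was below the other 9 and every WOX5:GFP sum above them. As a share of the FPKM of nuclear genes without ribosomal RNA, the family took 0.188% on average in TMO5:3xGFP, 0.353% in FEZ:FEZ-GFP, 0.505% in CYCD6:GFP and 0.731% in WOX5:GFP (n = 3 each). On that scale WOX5:GFP still lay above the other 9, but TMO5:3xGFP replicate 3 (0.299%) overlapped FEZ:FEZ-GFP, whose lowest library was at 0.294%. The TMO5:3xGFP libraries also listed the most genes above 0, at 22170, 20751 and 18981, against 14878 to 18043 in the other 9. The part of this difference between libraries in the aquaporin levels was not tested. In such data fewer cells of a type and less RNA per cell cannot be told apart.

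**Figure D1:**
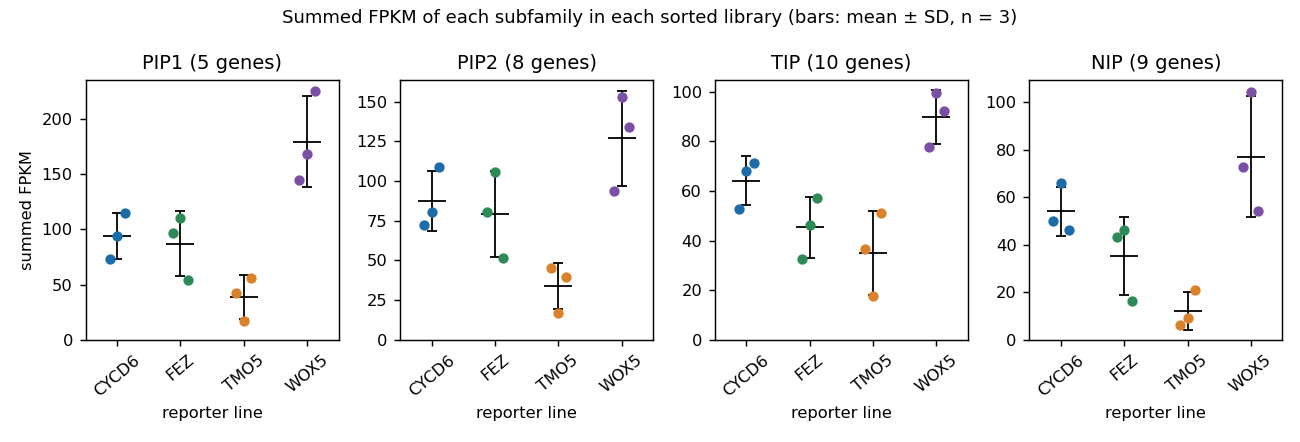
Summed FPKM of the PIP1, PIP2, TIP and NIP genes (vertical axes, one scale per panel) in each sorted library, with points for the 3 replicates of each reporter line and bars for mean ± SD. In the PIP1 panel the TMO5 libraries reach 56.3 at most and the WOX5 libraries start at 144.

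Of the 35 genes, 20 reached 1 FPKM in 3 or more of the 12 libraries and were tested with the other genes that passed this filter (9979 in all). The 20 comprised 11 of 13 PIP genes, 6 of 10 TIP genes, 2 of 9 NIP genes and 1 of 3 SIP genes. A gene was called between the 4 populations at an adjusted p under 0.05 in the moderated F-test of limma on log2(FPKM + 1), and in 1 population against the mean of the other 3 when its fold on that scale was also over 2. The F-test called 4 of the 20 aquaporins (NLM1, PIP1C, DELTA-TIP1 and TIP4;1) against 4.28% of all tested genes. TMO5:3xGFP was lower for 6 of the 20 (PIP1B, PIP1C, PIP1D, PIP3A, DELTA-TIP1 and NLM1), where 1.05% of all tested genes were called lower, and higher for 0, where 4.47% were called higher. WOX5:GFP was higher for 1 (PIP1C), where 0.351% were called higher, and lower for 0, where 0.451% were called lower. At an unadjusted p under 0.05, limma gave 1 aquaporin (PIP2B) lower in WOX5:GFP, where 5.88% of all tested genes were. It gave 0 higher in TMO5:3xGFP, where 14.8% were. The share depended on level. Under a filter of 5 FPKM in 3 or more libraries, 7 of 13 aquaporins were called lower in TMO5:3xGFP, where 4.22% of 2655 genes were.

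The direction was shared more widely than the calls. All 20 tested aquaporins had a negative difference in TMO5:3xGFP, with a median of -1.15 on the log2 scale, while 40.6% of all tested genes were negative there and their median was 0.14. In WOX5:GFP 19 of 20 were positive with a median of 0.93, against a median of -0.01 and 50.7% positive over all tested genes. At an unadjusted p under 0.05 and with no limit on the fold, 11 of 20 were lower in TMO5:3xGFP, where 5.71% of all tested genes were, and 11 of 20 were higher in WOX5:GFP, where 5.42% were. Under the filter of 5 FPKM, 11 of 13 were lower in TMO5:3xGFP, where 12.1% of the genes tested then were. In WOX5:GFP 9 of 13 were higher under that filter, where 8.21% were. The 2 contrasts are not independent, since each population enters the mean that the other is compared with.

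**Figure D2:**
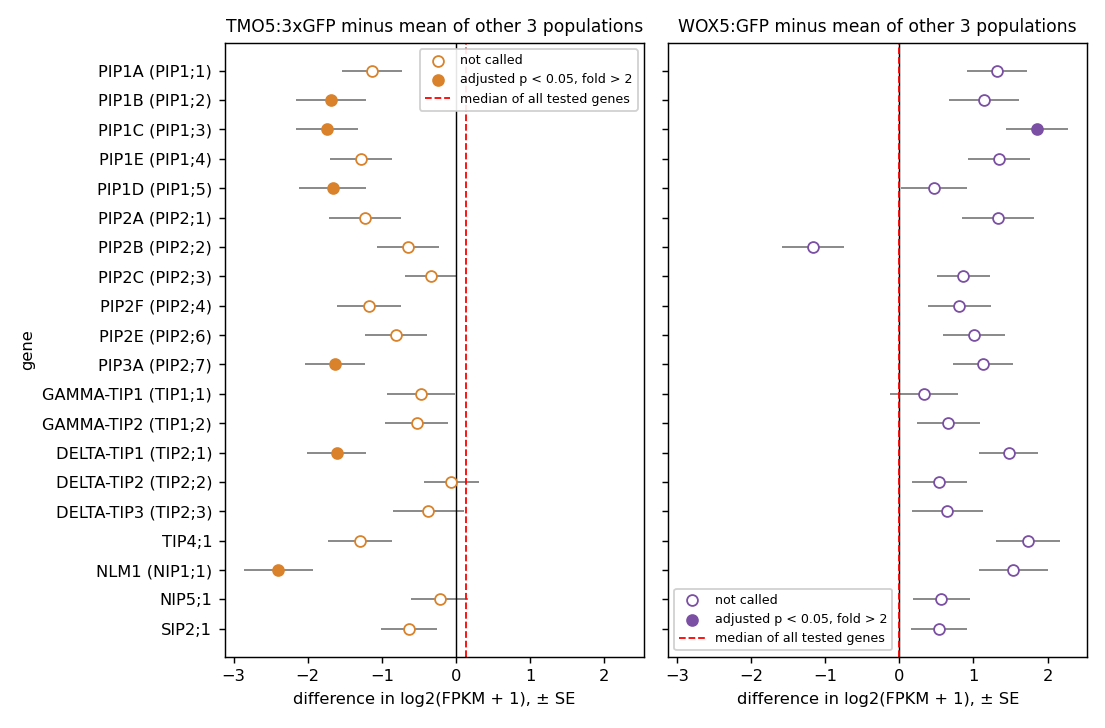
Difference in log2(FPKM + 1) ± SE between TMO5:3xGFP (left) or WOX5:GFP (right) and the mean of the other 3 populations for the 20 tested aquaporin genes, with filled points for called genes and a dashed line at the median of all tested genes. All 20 points lie left of 0 for TMO5:3xGFP, and PIP2B is the 1 point left of 0 for WOX5:GFP.

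The calls in TMO5:3xGFP rest on few libraries. Replicate 2 of TMO5:3xGFP held the lowest of the 12 values for 13 of the 20 tested aquaporins. The share of all tested genes with their lowest value in that library was not counted. Without replicate 2 the call count in TMO5:3xGFP went from 6 to 0, while over all genes the count of lower calls went from 105 to 6. The median difference was then -0.73 with 18 of 20 negative. Without replicate 1 the count was also 0 (26 over all genes), with a median of -1.22 and 20 of 20 negative. Without replicate 3 the count was 6 (67 over all genes). At an unadjusted p under 0.05, limma gave 5 aquaporins lower without replicate 2, where 4.03% of all tested genes were. It gave 12 without replicate 1, where 3.85% were. In WOX5:GFP the single call was lost without any 1 of its own 3 libraries, without CYCD6:GFP replicate 2 or without TMO5:3xGFP replicate 2. A second call was gained without TMO5:3xGFP replicate 3. Over all genes the calls higher in WOX5:GFP went from 35 to 12, 9 and 6 without its replicates 1, 2 and 3. They numbered 31 without CYCD6:GFP replicate 2, and 23 and 37 without TMO5:3xGFP replicates 2 and 3. The F-test called 0 aquaporins without TMO5:3xGFP replicate 1 or replicate 2, 1 without WOX5:GFP replicate 3, and 2 without WOX5:GFP replicate 2 or without CYCD6:GFP replicate 2. In these fits, in that order, it called 221, 157, 303, 293 and 322 of all genes, against 427 with all libraries.

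Among the PIP1 genes, whose products traffic to the plasma membrane with PIP2 partners, all 5 were tested and 3 were lower in TMO5:3xGFP. The summed FPKM of the subgroup averaged 38.4 ± 19.9 in TMO5:3xGFP, 87.1 ± 29.1 in FEZ:FEZ-GFP, 93.9 ± 20.6 in CYCD6:GFP and 179 ± 41.4 in WOX5:GFP (SD, n = 3).

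PIP1C is a PIP1 channel of the plasma membrane and was called in 3 tests. It had FPKM values of 24.0, 24.9 and 21.0 in CYCD6:GFP, 30.2, 37.3 and 12.4 in FEZ:FEZ-GFP, 10.6, 6.604 and 11.6 in TMO5:3xGFP and 56.2, 51.1 and 101 in WOX5:GFP. All TMO5:3xGFP values were below the other 9 and all WOX5:GFP values above them. It fell by 1.73 ± 0.42 (SE) on the log2 scale in TMO5:3xGFP (limma adjusted p = 0.0173) and rose by 1.86 ± 0.42 in WOX5:GFP (adjusted p = 0.0340), with an F-test adjusted p of 0.0187. The fall was called in 10 of the 12 fits that left out 1 library and the rise in 7 of 12.

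PIP1B, a PIP1 channel known to contribute to the water permeability of Arabidopsis roots, reached 24.1, 28.1 and 52.9 FPKM in CYCD6:GFP, 29.0, 35.2 and 26.1 in FEZ:FEZ-GFP, 16.0, 3.17 and 21.8 in TMO5:3xGFP and 41.8, 51.0 and 59.2 in WOX5:GFP. The 3 TMO5:3xGFP values lay below the other 9, with replicate 2 far below the rest, and 1 CYCD6:GFP library overlapped the WOX5:GFP range. The fall of 1.68 ± 0.47 in TMO5:3xGFP had an adjusted p of 0.0387 by limma and was called in 5 of the 12 fits without 1 library. The call also ended at a pseudocount of 0.1 or 5 (adjusted p = 0.0517 and 0.0599) and with no filter on low values (0.101). Without TMO5:3xGFP replicate 2 the difference was -0.94.

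PIP1D, another PIP1 channel and the least abundant of the subgroup in sorted cells, stood at 6.43, 11.9 and 8.65 FPKM in CYCD6:GFP, 9.55, 6.33 and 2.82 in FEZ:FEZ-GFP, 0.614, 0.610 and 4.93 in TMO5:3xGFP and 4.78, 10.8 and 5.31 in WOX5:GFP. TMO5:3xGFP replicates 1 and 2 were the lowest of all, but replicate 3 overlapped FEZ:FEZ-GFP and WOX5:GFP. It fell by 1.66 ± 0.45 in TMO5:3xGFP (limma adjusted p = 0.0322), a call kept in 6 of the 12 fits without 1 library and lost at a pseudocount of 5 (adjusted p = 0.0539) or with no filter (0.0979). In this gene WOX5:GFP was not the highest population, and its difference there was 0.47.

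PIP1A and PIP1E were called in no population. PIP1A had 6.19, 9.38 and 12.2 FPKM in CYCD6:GFP, 12.8, 15.4 and 7.02 in FEZ:FEZ-GFP, 6.94, 3.01 and 7.30 in TMO5:3xGFP and 15.3, 24.8 and 27.7 in WOX5:GFP. The lowest value was in TMO5:3xGFP and the 2 highest in WOX5:GFP, and both groups overlapped others. Its differences in these populations were -1.13 and 1.32 (adjusted p = 0.110 and 0.144 by limma). For PIP1E the 3 WOX5:GFP values of 26.4, 30.9 and 31.6 lay above the other 9, which ran from 3.64 to 19.6, and its difference of 1.35 had an adjusted p of 0.145. Counted by overlap instead of by test, 3 aquaporins (PIP1C, PIP1E and DELTA-TIP1) had all WOX5:GFP values above the other 9, where 1.41% of tested genes did. In 4 (PIP1B, PIP1C, PIP3A and DELTA-TIP1) all TMO5:3xGFP values were below the other 9, where 1.53% did.

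**Figure D3:**
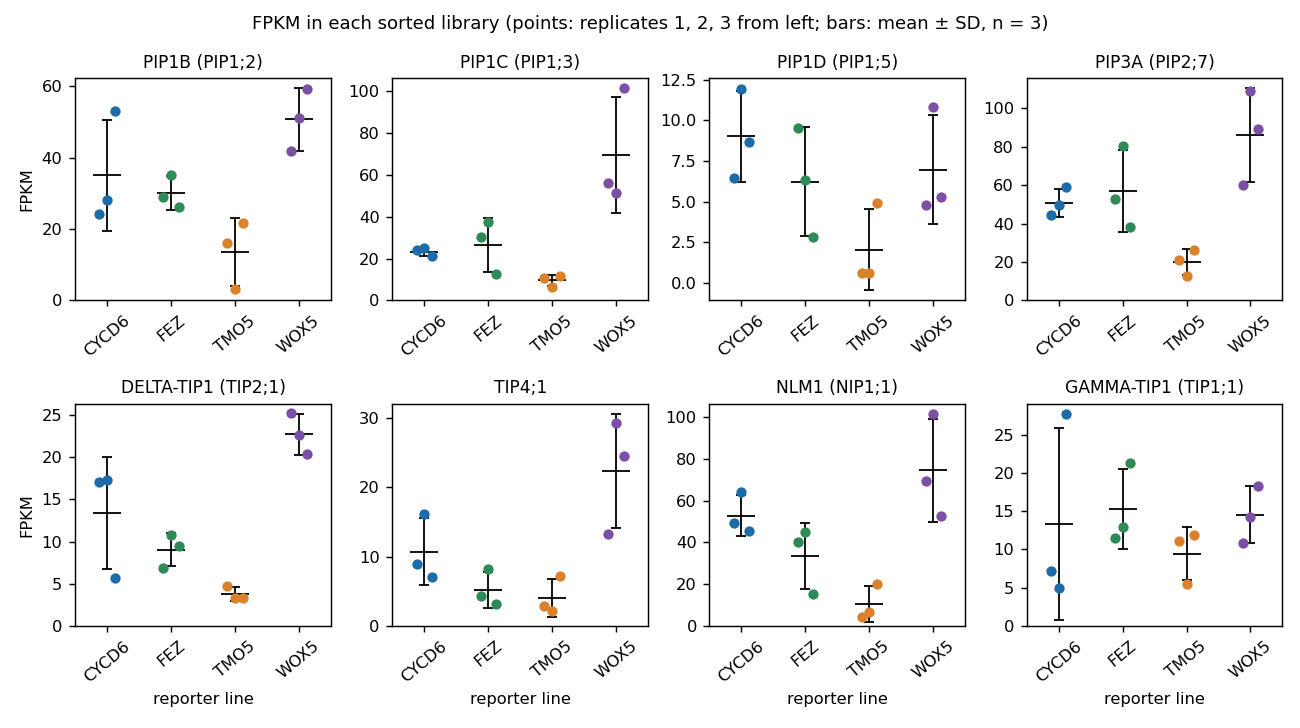
FPKM of the 7 aquaporin genes called in a test, and of GAMMA-TIP1 for comparison, in each sorted library (points, replicates 1 to 3 from the left) with mean ± SD. In PIP1C, PIP1B, PIP3A and DELTA-TIP1 the TMO5 points lie below all others, whereas in GAMMA-TIP1 the 4 groups overlap.

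The PIP2 genes encode the PIP channels with the higher water transport, and 6 of the 8 were tested. Their sum averaged 33.8 ± 14.7 FPKM in TMO5:3xGFP, 79.5 ± 27.2 in FEZ:FEZ-GFP, 87.4 ± 19.0 in CYCD6:GFP and 127 ± 30.0 in WOX5:GFP (SD, n = 3).

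PIP3A had the highest mean of all aquaporins over the sorted libraries (53.5 FPKM). Its values were 44.5, 49.6 and 58.9 in CYCD6:GFP, 52.8, 80.2 and 38.1 in FEZ:FEZ-GFP, 21.1, 12.6 and 26.0 in TMO5:3xGFP and 60.3, 109 and 89.1 in WOX5:GFP. TMO5:3xGFP was again wholly below the rest, while WOX5:GFP overlapped FEZ:FEZ-GFP. It fell by 1.63 ± 0.40 in TMO5:3xGFP (limma adjusted p = 0.0194), called in 10 of the 12 fits without 1 library. The difference in WOX5:GFP was 1.13 (adjusted p = 0.233).

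PIP2A, one of the major PIP2 water channels of roots, varied strongly within a group. It was at 4.13, 7.45 and 26.4 FPKM in CYCD6:GFP, 6.70, 4.16 and 4.25 in FEZ:FEZ-GFP, 8.48, 1.38 and 2.55 in TMO5:3xGFP and 11.4, 15.3 and 20.2 in WOX5:GFP. The highest value of all came from 1 CYCD6:GFP library and the groups overlapped. Its differences of -1.22 in TMO5:3xGFP and 1.33 in WOX5:GFP did not pass (limma adjusted p = 0.154 and 0.252).

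PIP2F, with a mean of 13.0 FPKM, had differences of -1.17 in TMO5:3xGFP and 0.81 in WOX5:GFP (limma adjusted p = 0.118 and 0.491). PIP2E was low everywhere (0.127 to 4.80 FPKM), with -0.81 and 1.01 and no call. PIP2D and PIP3B never reached 1 FPKM and were above 0 in 4 and 5 of the 12 libraries.

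PIP2B was the 1 tested aquaporin with a negative difference in WOX5:GFP. It stood at 2.92, 7.49 and 7.62 FPKM in CYCD6:GFP, 3.53, 3.04 and 2.75 in FEZ:FEZ-GFP, 3.47, 0.129 and 1.43 in TMO5:3xGFP and 1.07, 0 and 1.65 in WOX5:GFP. The 2 highest values were in CYCD6:GFP and the WOX5:GFP values were among the lowest, without a clean separation. The differences were -1.17 ± 0.42 in WOX5:GFP and 1.37 ± 0.42 in CYCD6:GFP, and neither passed (limma adjusted p = 0.239 and 0.202). Its near-copy PIP2C ran from 0.133 to 4.19 FPKM with a difference of 0.86 in WOX5:GFP (adjusted p = 0.326), and the read sharing between the pair applies to both.

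**Figure D4:**
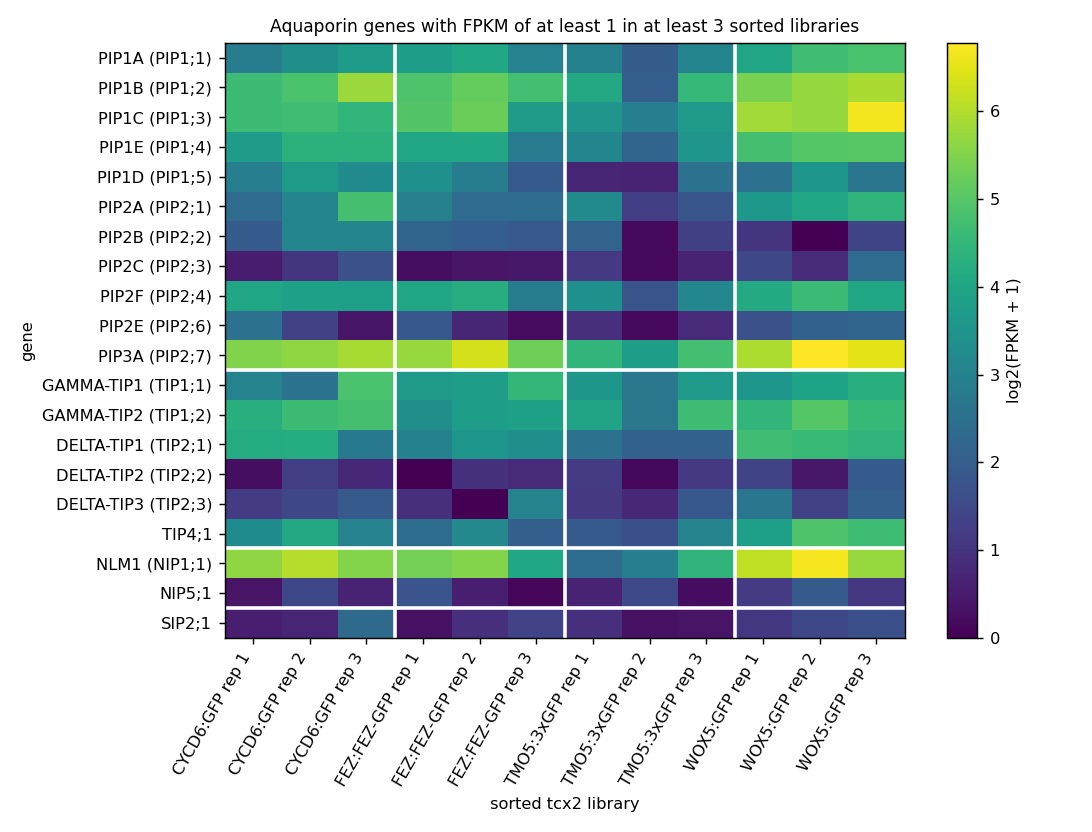
Level of the 20 tested aquaporin genes as log2(FPKM + 1) (color) in the 12 sorted libraries (columns, 3 replicates per reporter line), with white lines between populations and subfamilies. PIP3A, NLM1, PIP1B and PIP1C have the highest levels, and TMO5:3xGFP replicate 2 has the lowest value of 13 of the 20 genes.

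TIP channels equip the vacuole, and 6 of 10 were tested. The subfamily sum averaged 35.1 ± 16.9 FPKM in TMO5:3xGFP, 45.4 ± 12.3 in FEZ:FEZ-GFP, 64.1 ± 9.84 in CYCD6:GFP and 89.8 ± 10.9 in WOX5:GFP (SD, n = 3). The median difference of the 6 in TMO5:3xGFP was -0.50, nearer to 0 than that of the 5 PIP1 genes at -1.66 or the 6 PIP2 genes at -0.99.

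DELTA-TIP1, a vacuolar channel that also passes ammonia, had 17.1, 17.3 and 5.70 FPKM in CYCD6:GFP, 6.85, 10.8 and 9.49 in FEZ:FEZ-GFP, 4.77, 3.28 and 3.34 in TMO5:3xGFP and 25.2, 22.6 and 20.3 in WOX5:GFP. TMO5:3xGFP lay below and WOX5:GFP above all other libraries. It fell by 1.61 ± 0.40 in TMO5:3xGFP (limma adjusted p = 0.0191, called in 9 of the 12 fits without 1 library). Its F-test adjusted p was 0.0335, a call that held in 4 of those 12 fits and not with no filter (0.0947). The difference of 1.48 ± 0.40 in WOX5:GFP had an adjusted p of 0.0876.

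TIP4;1, a vacuolar channel known from roots, was called by the F-test of limma alone (adjusted p = 0.0369). That call held in 5 of the 12 fits without 1 library and was lost at a pseudocount of 0.1 (adjusted p = 0.0627) and with no filter (0.144). It was at 8.93, 16.2 and 6.998 FPKM in CYCD6:GFP, 4.23, 8.18 and 3.14 in FEZ:FEZ-GFP, 2.82, 2.13 and 7.16 in TMO5:3xGFP and 13.2, 29.3 and 24.6 in WOX5:GFP. A pair of WOX5:GFP libraries exceeded all others, and TMO5:3xGFP and FEZ:FEZ-GFP overlapped. Its differences were 1.74 ± 0.43 in WOX5:GFP and -1.30 ± 0.43 in TMO5:3xGFP (limma adjusted p = 0.0600 and 0.0806).

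GAMMA-TIP1 and GAMMA-TIP2 are the classic vacuolar water channels of growing tissue, and neither was called. GAMMA-TIP1 had 7.22, 4.95 and 27.7 FPKM in CYCD6:GFP, 11.5, 13.0 and 21.3 in FEZ:FEZ-GFP, 11.1, 5.47 and 11.8 in TMO5:3xGFP and 10.9, 14.3 and 18.4 in WOX5:GFP. All 4 groups overlapped, and its F-test adjusted p was 0.818 by limma. GAMMA-TIP2 had 18.1, 24.3 and 26.6 FPKM in CYCD6:GFP, 9.24, 12.7 and 13.9 in FEZ:FEZ-GFP, 14.5, 5.41 and 24.7 in TMO5:3xGFP and 21.0, 30.8 and 22.4 in WOX5:GFP. FEZ:FEZ-GFP was below CYCD6:GFP and WOX5:GFP in every library, yet the F-test adjusted p was 0.457.

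DELTA-TIP2 and DELTA-TIP3 were low (0 to 7.12 FPKM) and were not called, with F-test adjusted p values of 0.783 and 0.807 by limma. The other 4 TIP genes did not pass the filter. ALPHA-TIP and BETA-TIP belong to the protein storage vacuoles of seeds, and GAMMA-TIP3 and TIP5;1 are known from pollen. The highest value among these 4 was 2.30 FPKM, of ALPHA-TIP in CYCD6:GFP replicate 2.

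NLM1, a NIP channel that passes arsenite and antimonite, had the largest difference of any aquaporin and the second highest mean (42.8 FPKM). It stood at 49.2, 63.9 and 45.4 FPKM in CYCD6:GFP, 40.2, 44.9 and 15.4 in FEZ:FEZ-GFP, 4.23, 6.55 and 20.2 in TMO5:3xGFP and 69.5, 101 and 52.8 in WOX5:GFP. Replicates 1 and 2 of TMO5:3xGFP were below all other libraries and replicate 3 overlapped FEZ:FEZ-GFP. It fell by 2.40 ± 0.47 in TMO5:3xGFP (limma adjusted p = 0.00440), with an F-test adjusted p of 0.0122, and the fall was called in 10 of the 12 fits without 1 library. It was not called without TMO5:3xGFP replicate 1 (-1.97, adjusted p = 0.0632) or replicate 2 (-2.24, adjusted p = 0.0790).

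Of the other NIP genes, NIP5;1, the boric acid channel of roots, was tested and not called. It ran from 0.0865 to 2.84 FPKM with overlapping groups and an F-test adjusted p of 0.802 by limma. NLM2, NIP2;1, NIP3;1 and NIP6;1 stayed under 1 FPKM in every sorted library, and NIP4;1, NIP4;2 and NIP7;1 were listed at 0 in all 12. SIP2;1, whose protein resides in the endoplasmic reticulum, had 0.483, 0.635 and 4.11 FPKM in CYCD6:GFP, 0.227, 0.918 and 1.58 in FEZ:FEZ-GFP, 0.896, 0.242 and 0.276 in TMO5:3xGFP and 1.14, 1.77 and 2.15 in WOX5:GFP. Its groups overlapped and its largest difference was -0.63 in TMO5:3xGFP (adjusted p = 0.364). SIP1A reached 1 FPKM in 2 libraries (1.79 at most) and SIP1B was listed at 0 in all 12.

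In CYCD6:GFP and FEZ:FEZ-GFP no aquaporin was called by limma, either higher or lower. Over all tested genes 0.00% were called higher and 0.200% lower in CYCD6:GFP, and 0.220% higher and 0.0200% lower in FEZ:FEZ-GFP. At an unadjusted p under 0.05, 2 aquaporins (PIP2B and PIP1D) were higher and 0 lower in CYCD6:GFP, where 1.83% and 9.09% of all tested genes were. In FEZ:FEZ-GFP 0 were higher and 1 (PIP2C) lower, where 4.12% and 3.15% were. The median differences of the 20 were 0.30 and -0.18, beside -0.10 and -0.03 over all tested genes. With sample weights from the data, limma called 3 aquaporins higher and 1 lower in CYCD6:GFP, and 2.00% of all tested genes higher and 7.19% lower.

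Markers of other cells moved with the TMO5:3xGFP contrast as well. Of 3 root cap genes (SMB, BRN1 and BRN2), which encode NAC factors of cap maturation, 2 were tested and both were higher in TMO5:3xGFP, SMB by 1.43 and BRN1 by 1.84 (limma adjusted p = 0.0132 and 0.00729). SMB was also called lower in WOX5:GFP, by 1.43 (adjusted p = 0.0428), and BRN1 was not (-1.22, adjusted p = 0.159). In FEZ:FEZ-GFP the difference of SMB was 1.55 (adjusted p = 0.0532) and that of BRN1 0.02. The summed level of the 3 root cap genes was 5.48 to 11.2 FPKM in TMO5:3xGFP, 2.18 to 8.17 in FEZ:FEZ-GFP, 0 to 1.42 in CYCD6:GFP and 0 to 0.216 in WOX5:GFP. BRN2 was at 0 in all CYCD6:GFP and WOX5:GFP libraries. The part of root cap cells in the aquaporin differences was not tested.

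Root hair genes (EXPA7, EXPA18, COBL9, PRP3 and LRX1) summed to 33.5 to 109 FPKM in TMO5:3xGFP and to 29.6 to 69.2 in WOX5:GFP, and 0 of 5 were called by limma in any population. At an unadjusted p under 0.05, 1 was higher in TMO5:3xGFP and 1 in FEZ:FEZ-GFP, where 14.8% and 4.12% of all tested genes were. The median difference of the 5 root hair genes in TMO5:3xGFP was 0.42. Of 6 genes of differentiated xylem, 1 was tested, the protease gene XCP1, and it was higher in WOX5:GFP by 1.80 (limma adjusted p = 0.0328) with 0.755, 3.00 and 8.42 FPKM there and 0 in all TMO5:3xGFP libraries. The part of these cells in the aquaporin levels was not tested.

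Of 22 genes chosen as possible partners of aquaporins (plasma membrane proton pumps AHA1 to AHA11, the vacuolar pump AVP1, the syntaxins SYP121 and SYP61, the ubiquitin ligases RMA1 to RMA3, TSPO, SIRK1 and the boron exporters BOR1, BOR2 and BOR4), 10 were tested. By limma, 1 was higher and 0 lower in TMO5:3xGFP, where 4.47% and 1.05% of all tested genes were, and 0 were called in the other 3 contrasts. At an unadjusted p under 0.05, 1 was lower in TMO5:3xGFP, 1 lower in FEZ:FEZ-GFP and 1 higher in WOX5:GFP. Of all tested genes 5.71%, 3.15% and 5.42% were, in that order. The called gene was RMA3, of a family of membrane-bound ubiquitin ligases, with 2.74, 2.73 and 1.40 FPKM in TMO5:3xGFP and 0.0412 to 0.848 in the other 9 libraries. It rose by 1.35 ± 0.29 (limma adjusted p = 0.00959) and was the 1 partner called by the F-test (adjusted p = 0.0453). Only the 3 TMO5:3xGFP libraries reached 1 FPKM for RMA3. It thus passed the filter solely through the population where it was called, and the filter favored this direction. The median of the 10 in TMO5:3xGFP was 0.08, close to that of all tested genes.

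In whole root tips the aquaporin genes ranged from 0 to 4879 FPKM. No member separated WT from tcx2 by the rule given here, and few of all entries did. The table gives 1 value per genotype with an interval of unstated confidence level, so no replicate error is known and no test was made. An entry that reached 1 FPKM in either genotype was called if the intervals of WT and tcx2 were apart. By this rule 0 of 26 aquaporins were higher and 0 lower in tcx2, where 0.0401% of all 17465 such entries were higher and 0.321% lower. A count of 0 among 26 is near these shares and does not set the family apart. Disregarding the intervals, 0 of the 26 differed by more than 1.5-fold, a size that 138 entries higher in tcx2 and 319 lower reached of 17465.

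The 35 genes summed to 24807 FPKM in WT and 27700 in tcx2, or 3.02% and 3.25% of the FPKM of nuclear genes without ribosomal RNA. GAMMA-TIP1 was the highest. It had 4342 FPKM in WT root tips (2326 to 4605) and 4879 in those of tcx2 (2434 to 4839), and the latter value lies outside its own interval. GAMMA-TIP2 followed with 3883 (2068 to 4093) and 4397 (2230 to 4455).

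PIP1B had 2399 FPKM in WT (1750 to 3048) and 2537 in tcx2 (1852 to 3222), and PIP2A 1949 (1445 to 2454) and 1889 (1420 to 2356). PIP1A had 1795 (1344 to 2247) and 2033 (1516 to 2549), and PIP3A 1635 (1220 to 2047) and 2060 (1507 to 2611). All 4 intervals overlapped broadly between the genotypes.

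**Figure D5:**
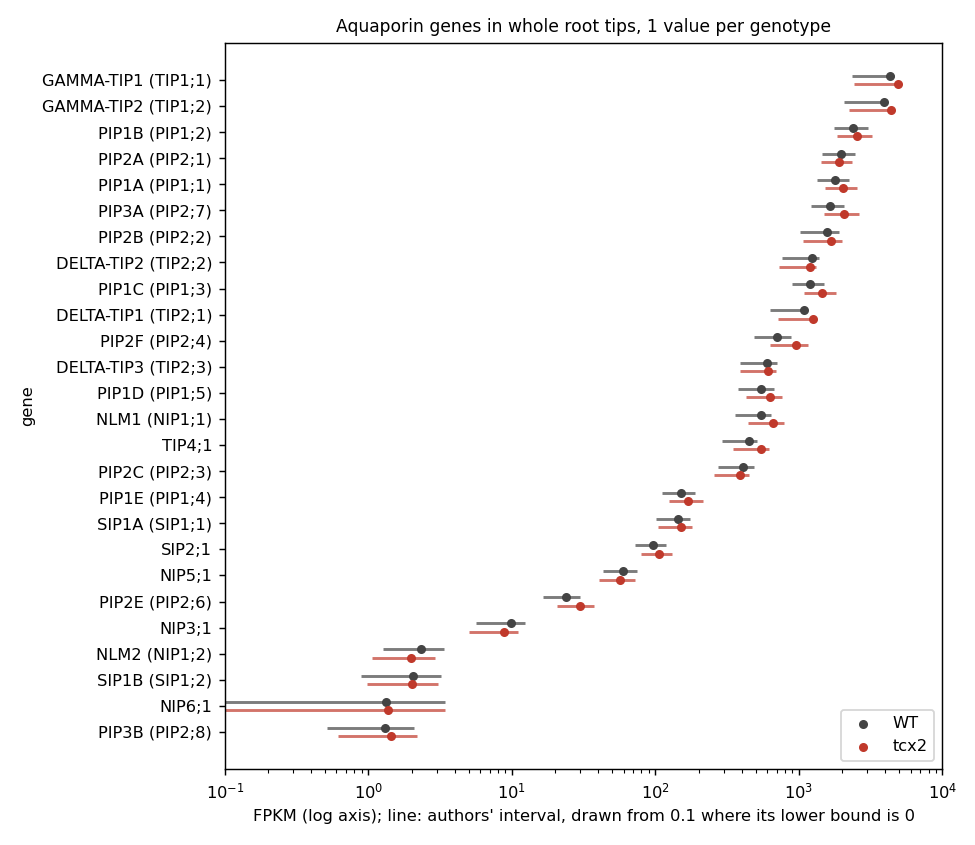
FPKM of the 26 aquaporin genes at 1 FPKM or more in root tips of WT (gray) and tcx2 (red) on a log axis, with the deposited interval as a line that starts at 0.1 where its lower bound is 0. The intervals of the 2 genotypes overlap for all 26 genes.

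The value was higher in tcx2 for 19 of the 26 aquaporins, against 50.4% of all entries, with a median log2 ratio of FPKM + 1 of 0.12 against 0.00. By subfamily the higher value was in tcx2 for 5 of 5 PIP1 genes, 5 of 7 PIP2 genes, 5 of 6 TIP genes, 2 of 5 NIP genes and 2 of 3 SIP genes. The ratios spanned -0.16 to 0.43. The largest was that of PIP2F, with 702 FPKM in WT (489.5 to 879) and 948 in tcx2 (633 to 1155), and the smallest that of NIP3;1, with 9.89 and 8.78 FPKM.

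Of the other genes called in sorted cells, DELTA-TIP1 had 1077 FPKM in WT root tips (628 to 1131) and 1263 in tcx2 (719 to 1322). PIP1C had 1193 (901 to 1485) and 1450 (1086 to 1813). NLM1 had 543 (358 to 639) and 665 (439 to 793), TIP4;1 452 (289.7 to 513) and 546 (346 to 619.7), and PIP1D 546 (376 to 668) and 632 (424 to 757). Each was higher in tcx2 by 0.21 to 0.29 on the log2 scale, within overlapping intervals.

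Marker lists of other root cells differed in direction in the root tips, and none of their genes had separate intervals. All 5 root hair genes had the higher value in tcx2 (median 0.32), as did all 6 genes of differentiated endodermis (median 0.13). The value was lower in tcx2 for 4 of 5 genes of differentiated xylem (median -0.05), 2 of 3 root cap genes (median -0.01) and the 1 cortex gene at 1 FPKM or more (-0.06). CASP1 stood at 692 FPKM in WT and 731 in tcx2. The part of a different mix of cells in the root tip ratios was not tested. Of 17 partner genes at 1 FPKM or more, 10 had the higher value in tcx2 (median 0.02).

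The genes that were at or near 0 in sorted cells were partly detected in root tips. SIP1A and SIP1B, which the filter had removed, had 145 and 2.05 FPKM in WT root tips and 149.8 and 2.01 in tcx2. NIP3;1, NLM2, NIP6;1 and PIP3B were between 1.32 and 9.89 FPKM in WT. The remaining 9 (PIP2D, GAMMA-TIP3, ALPHA-TIP, BETA-TIP, TIP5;1, NIP2;1, NIP4;1, NIP4;2 and NIP7;1) were under 1 FPKM in both genotypes. The order of the 35 genes by level was similar in tcx2 root tips and in the mean of sorted libraries (Spearman 0.875 over 35 genes, 0.653 over the 19 genes at 1 FPKM or more in both), given as a description across genes, which are not independent. DELTA-TIP2 departed from that order, with 1187 FPKM in tcx2 root tips and a sorted mean of 0.960 FPKM, the lowest of the 20 tested genes.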

How the data were processed

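RNA-seq of 18 samples in 6 groups was analysed from deposited tables. The authors mapped 100-base single-end reads with Bowtie and obtained FPKM with the Tuxedo tools and Rsubread, and their processing notes name Bowtie, Bowtie2, Cufflinks, edgeR and TAIR10, without versions. The deposited FPKM of sorted cells are given per library, and those of root tips as 1 value and interval per genotype. Root tip and sorted libraries used different kits and were tabulated separately, so levels were not tested between them. The deposited tables hold no counts, so depth and counting error are unknown.

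In sorted cells 9979 of 33560 genes reached an FPKM of 1 in 3 or more of 12 libraries. For these, limma 3.58.1 in R 4.3.3 was run on log2(FPKM + 1) (group means, variance trend, two-sided tests, Benjamini-Hochberg over all tested genes). This scale understates changes of low genes. Replicates were grouped by the labels. The fit was tested on simulated data. Alternatives were other pseudocounts (0.1 and 5), filters, scalings, sample weights (statmod 1.5.0), a replicate block and leaving out each library. All 35 genes are accounted for. Values in every library are given for members that were called, were among the 5 highest in sorted cells or root tips, or had the largest difference of their subfamily. PIP2B and PIP2C were singled out after their values were seen. The members and lists were chosen with earlier results of these data known. Sequences are from RefSeq (TAIR10.1, whose chromosome names match those of TAIR10 as used here), and all 35 root tip entries overlapped the RefSeq gene of the same identifier. Python 3.11.15 with pandas 2.3.3, numpy 2.4.6 and matplotlib 3.10.9 was used for the rest.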

Additional observations from a re-analysis of the deposited data

How the results depend on the processing

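The count of aquaporins lower in TMO5:3xGFP was 6 and stayed between 4 and 9 under the 8 alternatives that kept all libraries, with differences of the 6 genes that never changed sign. Leaving out 1 library gave 0 to 7 for TMO5:3xGFP lower (6 to 163 over all genes). It gave 0 to 5 for the F-test (4 with all libraries, 157 to 474 over all genes). For WOX5:GFP higher it gave 0 to 2 (1 with all libraries, 6 to 44 over all genes). The F-test count was 0 with no filter, where 28571 genes were tested, 7 after rescaling without ribosomal and organelle genes and 11 with sample weights. The count higher in WOX5:GFP was 2 at a pseudocount of 5 and with a minimum of 5 FPKM, 3 with sample weights, and 0 with no filter. Over all genes these calls numbered 35 in the main fit, 15 at a pseudocount of 5 and 19 of 2655 with a minimum of 5 FPKM. They numbered 112 with sample weights and 12 with no filter. Sample weights also gave 3 aquaporins higher and 1 lower in CYCD6:GFP, where they gave 200 and 717 of all 9979 tested genes. The causes of these shifts were not tested. Median centring moved the median of all tested genes in TMO5:3xGFP from 0.14 to -0.04 and that of the 20 aquaporins from -1.15 to -1.33. It also changed the calls of all genes there from 446 higher and 105 lower to 373 higher and 318 lower, while aquaporin calls stayed all lower (9). Over all genes the F-test called 427, and 245 at a pseudocount of 0.1 and 174 with no filter. It called 192 with a minimum of 5 FPKM, 542 after rescaling and 3985 with sample weights. Calls of all genes lower in TMO5:3xGFP numbered 40 at a pseudocount of 5 and 41 with no filter. They numbered 201 after rescaling, 486 with sample weights and 112 of 2655 genes with a minimum of 5 FPKM. In root tips 0 aquaporins were called under every alternative.

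The replicate block gave 4 aquaporins in the F-test, 6 lower in TMO5:3xGFP and 0 higher in WOX5:GFP. Of all 9979 tested genes it gave 358, 86 and 32 in that order. No sign of a pairing by replicate number was seen. Deviations from group means correlated by -0.0029 on average between same-numbered libraries (-0.187 to 0.174, 2 of 18 pairs over 0.1) and by 0.0015 between differently numbered ones. Such averages cannot show that no libraries shared a batch. Replicates number 3 per group and root tips have no replicate values, so many differences over 2-fold were not resolved here, nor were smaller ones. The smallest aquaporin difference called was -1.61 on the log2 scale (DELTA-TIP1 in TMO5:3xGFP). That of TIP4;1 in WOX5:GFP, at 1.74, was not called (limma adjusted p = 0.0600). Differences of genes near 1 FPKM were poorly resolved.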

Other observations

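The neighbors PIP2B and PIP2C changed places between populations, a pattern noticed after the values were seen and not tested. PIP2C had the higher FPKM in 3 of 3 WOX5:GFP libraries (1.75 against 1.07, 0.785 against 0 and 4.19 against 1.65). PIP2B had the higher FPKM in 8 of the 9 other libraries, the exception being TMO5:3xGFP replicate 2 with 0.133 for PIP2C and 0.129 for PIP2B. In root tips PIP2B was at 1565 FPKM in WT and 1685 in tcx2, and PIP2C at 406 and 391. All of these sorted values are low, and 18.8% of 100-base windows are shared between the coding sequences. How shared reads were assigned was not tested.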
